A study of Mus musculus with 15 samples.

Results

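Growth factor receptor tyrosine kinases are membrane proteins that bind a ligand outside the cell and add phosphate to tyrosines inside it. The phosphotyrosines recruit adaptor proteins that pass the signal to the Ras and MAP kinase pathway and to PI3-kinase and Akt. In myoblasts, fibroblast growth factors, platelet-derived growth factors and hepatocyte growth factor are known to favour proliferation or movement of muscle precursors, whereas insulin drives glucose uptake and growth. Because the receptors at the surface are removed by endocytosis and must be made again, the lifetime of a receptor mRNA bears on how long the receptor can be replaced after its gene is silenced.

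The mRNAs of 10 such receptors were followed here after transcription was blocked. They are Pdgfra and Pdgfrb (receptors of platelet-derived growth factors), Fgfr1 and Fgfr4 (fibroblast growth factors), Egfr and Erbb2 (the epidermal growth factor family), Met (hepatocyte growth factor), Insr (insulin), Epha2 (ephrin-A ligands on neighbouring cells) and Ddr2 (fibrillar collagen). The genes were chosen by name, out of 19452 genes that had a probe set of their own among the 25175 on the array. They had 11 probe sets, since Insr had 2. Where a gene had several, the one brightest on average on the 0 min arrays stood for it. At that time 9 of the 10 were brighter than the array median, and Fgfr4 was dimmer than it on all 3 arrays. A further probe set annotated to both Erbb2 and Sympk was not used.

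The cells were proliferating mouse C2C12 myoblasts, a line of muscle precursors, in the stable LKO-1 line that carries an empty lentiviral vector, grown in puromycin and kept under confluency so that they would not differentiate. All 15 arrays came from cells that had been given 8 µg/mL actinomycin D, which blocks RNA synthesis, for 30 min, and RNA was taken 0, 10, 50, 110 and 230 min after that incubation in each of 3 time courses. No array came from cells without the drug, so the level at 0 min is already a level in its presence. The study ran its decay experiments in triplicate without stating that the cultures were grown apart, so part of the spread among these 3 runs could be technical. The p-values of trends and of single times measure the scatter of the arrays about a course shared by the runs. Those of differences between receptors come from reordering the times within runs. Neither kind takes the variation of a slope from run to run as its error, and precision is set by the small number of runs. The study used a fixed amount of total RNA per array, and the values are ratios within an array, so only relative levels are measured. Since the RNA came from whole cultures, a fall in all cells and a fall in some of them cannot be told apart.

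Each value is a linear ratio of a probe set to the 5th percentile of its array. Probe sets differ in how well they hybridize, so levels of different receptors were not set against each other, and only the course of each over time was compared. The median of the array, itself a mix of decaying transcripts, went from 2.42 to 2.74 at 0 min to 1.44 to 1.72 at 230 min. In the first time course the 110 min array stood low, with a 75th percentile of 3.90 against 4.63 at 230 min, and 9 of the 10 receptors, all except Erbb2, had a higher ratio at 230 than at 110 min in that course. All 8 myoblast markers tested were above the array median at 0 min, with a summed ratio of 143 to 183. Of the 7 myotube markers 5 were also above it, at a summed ratio of 22.5 to 41.9. None of the 5 endothelial or 4 adipocyte markers was, and among 5 blood cell and 4 epithelial markers Cd68 and Krt8 were; the summed ratios of these 4 types at 0 min were 5.89 to 8.82. The part of these markers in the results was not tested.

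Every one of the 10 receptor mRNAs fell with time (limma, linear trend of the log2 ratio over 15 arrays with the time course as a block, adjusted p under 0.05). This count must be read against the whole array, where 75.8% of probe sets fell and 0.302% rose, and among probe sets above the array median 96.3% fell and 0.0159% rose. Refitted on those probe sets alone, 9 of 9 receptors fell, beside 96.4% of probe sets that fell and 0.0239% that rose. With the 5th percentile subtracted from every value all 10 fell as well, beside 77.2% of probe sets that fell and 0.0278% that rose. The slopes of the receptors spanned a wide range, from -0.58 log2 per hr for Epha2 to -0.12 for Fgfr4. Their median slope was -0.30 log2 per hr, beside -0.14 for all probe sets and -0.25 for probe sets above the array median. Epha2 and Erbb2 were lost fastest, Pdgfrb and Insr followed, Fgfr1, Egfr and Pdgfra were intermediate, and Met, Ddr2 and Fgfr4 had the shallowest slopes.

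**Figure D1:**
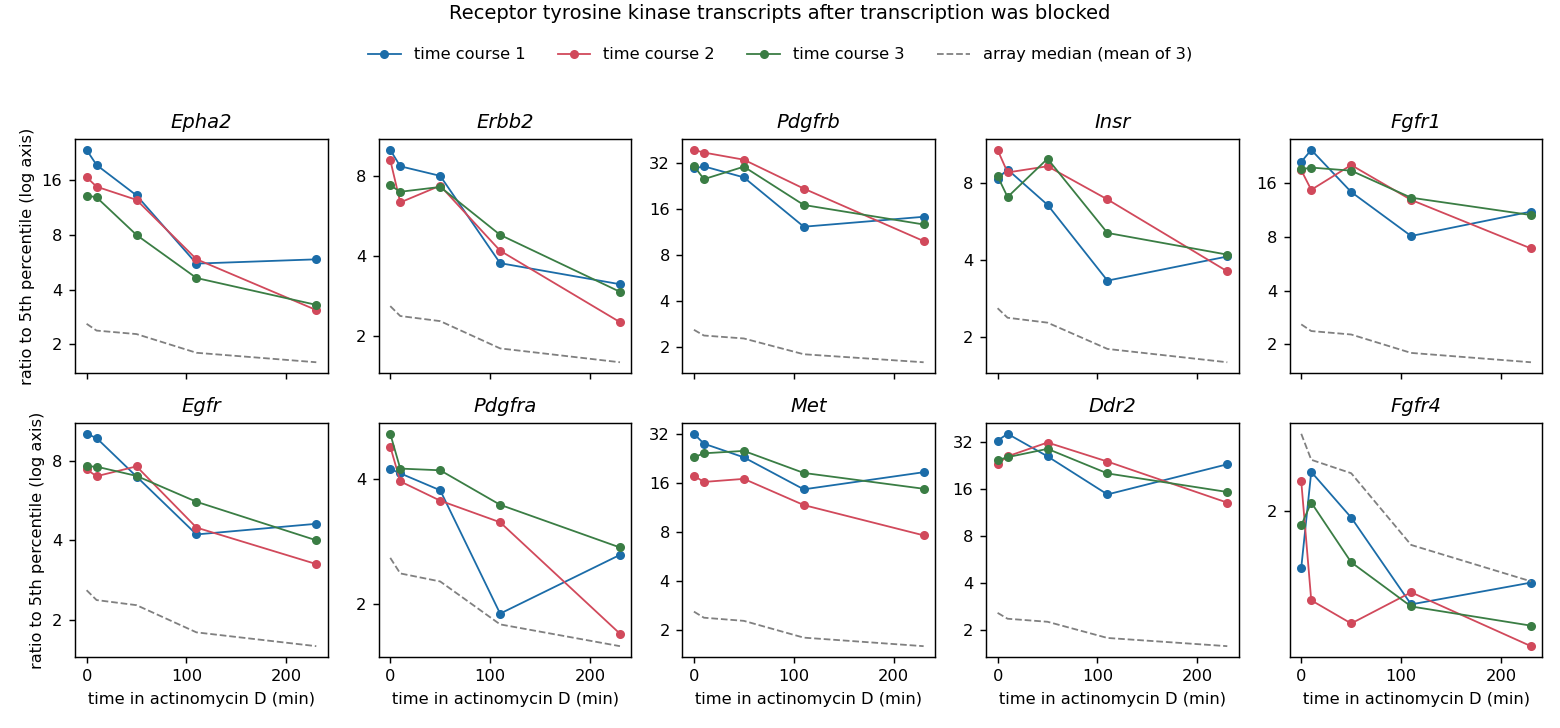
Ratio of each receptor's probe set to the 5th percentile of its array (log axis, with a different range in each panel) against minutes after the actinomycin D incubation, with 1 line per time course and the mean array median as a dashed line. Epha2 went from between 13.21 and 23.59 to between 3.08 and 5.87, and Fgfr4 stayed below the dashed line at most times.

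Epha2, a receptor that signals on contact between cells, had the steepest decay. Its ratios were 23.59, 16.68 and 13.21 at 0 min, 19.47, 14.78 and 12.91 at 10 min, and 13.23, 12.50 and 8.00 at 50 min in time courses 1, 2 and 3. They were 5.56, 5.88 and 4.63 at 110 min and 5.87, 3.08 and 3.29 at 230 min. All 6 late values lay far below the lowest at 0 min, and at 50 min every time course had already come down, although the ranges at 0 and 50 min still touched. Within time courses, the share of the starting ratio that was left after 50 min was 63.9% ± 9.85 (SD, n = 3). It was 31.3% ± 6.69 (SD, n = 3) after 110 min, and the last arrays had 22.8% ± 3.71 (SD, n = 3). The slope was -0.58 log2 per hr (SE 0.057, limma adjusted p = 1.902e-06), and only 2.51% of probe sets above the array median had a steeper one.

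Erbb2 and Egfr belong to the same family. Erbb2 binds no known ligand of its own and acts as the partner of the other family members, whereas Egfr binds epidermal growth factor and its relatives. Erbb2 had ratios of 10.08, 9.23 and 7.41 at 0 min, 8.74, 6.38 and 7.0 at 10 min, 8.04, 7.38 and 7.30 at 50 min, 3.76, 4.19 and 4.81 at 110 min, and 3.13, 2.25 and 2.93 at 230 min. Its levels at 110 min were below all those at 0 min, and its levels at 230 min were below all those at 110 min. The Erbb2 mRNA left at 230 min was 31.7% ± 7.60 (SD, n = 3), with a slope of -0.44 log2 per hr (SE 0.041, limma adjusted p = 1.355e-06).

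Egfr decayed less steeply. Its ratios were 10.14, 7.43 and 7.63 at 0 min, 9.77, 7.0 and 7.61 at 10 min, 6.98, 7.63 and 7.02 at 50 min, 4.21, 4.47 and 5.6 at 110 min, and 4.62, 3.25 and 4.0 at 230 min. The first 3 times overlapped, and both later ones lay below all of them. At 230 min 47.2% ± 4.58 (SD, n = 3) was left, and the slope was -0.30 log2 per hr (SE 0.039, limma adjusted p = 1.442e-05). At 50 min the log2 changes of Egfr and Erbb2 were -0.21 and -0.22, and at 230 min -1.09 and -1.69. Over all times their slopes differed by 0.14 log2 per hr (SD 0.028 over 3 time courses, exact permutation adjusted p = 0.003371), with Erbb2 the steeper in 3 of 3 time courses. Without the 230 min arrays the difference was 0.08 (exact permutation adjusted p = 0.436).

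The receptors of platelet-derived growth factors also differed from each other. Pdgfrb, the main receptor of the B chain, had ratios of 29.34, 38.82 and 30.52 at 0 min, 30.30, 37.30 and 24.98 at 10 min, 25.66, 33.49 and 30.15 at 50 min, 12.21, 21.68 and 16.94 at 110 min, and 14.18, 9.84 and 12.63 at 230 min. It stayed near its starting level for the first 50 min, at 90.8% ± 6.91 (SD, n = 3), and 38.4% ± 11.8 (SD, n = 3) was left at 230 min. At 50 min its log2 change was -0.14, beside a median of -0.11 for probe sets above the array median. The slope of Pdgfrb was -0.39 log2 per hr (SE 0.049, limma adjusted p = 1.081e-05).

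Pdgfra, which binds both the A and B chains, had ratios of 4.23, 4.79 and 5.14 at 0 min, 4.13, 3.95 and 4.24 at 10 min, 3.76, 3.55 and 4.20 at 50 min, 1.90, 3.15 and 3.47 at 110 min, and 2.63, 1.70 and 2.74 at 230 min. All values from 110 min on lay below those at 0 min, and 50.3% ± 13.6 (SD, n = 3) was left at 230 min. Its slope was -0.26 log2 per hr (SE 0.044, limma adjusted p = 0.0001328). As deposited, Pdgfra decayed less steeply than Pdgfrb by 0.13 log2 per hr (SD 0.035 over 3 time courses, exact permutation adjusted p = 0.001799). Pdgfra lay close to the floor of the array, and once the 5th percentile was subtracted from all values the difference was 0.01 log2 per hr (exact permutation adjusted p = 0.76), so the call rests on how the floor is treated.

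Fgfr1, the fibroblast growth factor receptor best known for keeping myoblasts in the cell cycle, had ratios of 21.05, 18.89 and 19.11 at 0 min, 24.57, 14.68 and 19.56 at 10 min, 14.27, 20.21 and 18.79 at 50 min, 8.09, 12.89 and 13.26 at 110 min, and 11.08, 6.89 and 10.60 at 230 min. The 3 time courses began close together and spread at 10 and 50 min, and all values at 110 and 230 min lay below the first ones. At 230 min 48.2% ± 10.2 (SD, n = 3) was left, with a slope of -0.30 log2 per hr (SE 0.055, limma adjusted p = 0.0002462).

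Fgfr4, known from regenerating muscle, was near the floor throughout. Its ratios were 1.66, 2.21 and 1.91 at 0 min, 2.28, 1.49 and 2.06 at 10 min, 1.96, 1.38 and 1.69 at 50 min, 1.47, 1.53 and 1.46 at 110 min, and 1.58, 1.28 and 1.37 at 230 min. With 1.00 as the 5th percentile of each array, there was little room for it to fall, and its slope of -0.12 log2 per hr (SE 0.036, limma adjusted p = 0.007334) is a weak measure of its decay. Fgfr1 was steeper than Fgfr4 by 0.18 log2 per hr (SD 0.071 over 3 time courses, exact permutation adjusted p = 0.02147). Without any 1 of the time courses that difference missed the threshold (exact permutation adjusted p of 0.0751, 0.0845 and 0.0747), and after subtraction of the 5th percentile it was 0.01 log2 per hr in the same direction (exact permutation adjusted p = 0.94).

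Insr, the insulin receptor, had ratios of 8.35, 10.83 and 8.54 at 0 min, 9.07, 8.83 and 7.07 at 10 min, 6.59, 9.34 and 10.00 at 50 min, 3.32, 6.92 and 5.11 at 110 min, and 4.13, 3.61 and 4.20 at 230 min. The values at 110 and 230 min were below all those at 0 min, and 44% ± 9.23 (SD, n = 3) was left at 230 min. The slope was -0.33 log2 per hr (SE 0.052, limma adjusted p = 7.485e-05). The other Insr probe set was shallower, at -0.20 log2 per hr (SE 0.038, limma adjusted p = 0.0003279), so the rate given for this gene depends on the probe set.

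Met, the receptor of hepatocyte growth factor that guides migrating muscle precursors, had ratios of 32.01, 17.67 and 22.96 at 0 min, 27.84, 16.20 and 24.29 at 10 min, 22.94, 16.92 and 25.13 at 50 min, 14.59, 11.68 and 18.40 at 110 min, and 18.59, 7.61 and 14.71 at 230 min. The time courses started far apart, so that the ranges at 0 and 230 min overlapped, yet each course ended below its own start with 55.1% ± 10.8 (SD, n = 3) left. The slope, which takes each time course against its own level, was -0.24 log2 per hr (SE 0.040, limma adjusted p = 0.0001167).

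Ddr2, a receptor activated by fibrillar collagen, was the most persistent of the receptors above the array median. Its ratios were 32.45, 23.01 and 24.35 at 0 min, 35.85, 25.76 and 25.44 at 10 min, 25.74, 31.55 and 28.74 at 50 min, 14.72, 23.85 and 20.04 at 110 min, and 22.92, 13.05 and 15.26 at 230 min. At 10 min it was above its start in every time course, the ranges at 0 and 110 min overlapped, and 63.3% ± 6.98 (SD, n = 3) was left at 230 min. The slope was -0.21 log2 per hr (SE 0.053, limma adjusted p = 0.002469), and 65.6% of probe sets above the array median had a steeper one.

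The time at which each receptor had fallen was asked by comparing each later time with 0 min. These comparisons share the 0 min arrays. At 10 min no receptor passed, with no probe set called on the array (limma; 0 receptors and 630 probe sets at an unadjusted p under 0.05). At 50 min no receptor passed either, where 1.03% of all probe sets had fallen. There 1 of the 10 receptors, Epha2, had an unadjusted p under 0.05 (limma), beside 2409 of 25175 probe sets. Its log2 change was -0.66 (SE 0.16, limma adjusted p = 0.09558). At 110 min 8 receptors were lower, beside 51.1% of all probe sets (0.0516% were higher), with log2 changes from -0.68 for Met to -1.70 for Epha2. Ddr2 at -0.46 (adjusted p = 0.1087) and Fgfr4 at -0.36 (adjusted p = 0.07993) did not pass. At 230 min all 10 were lower, beside 68.8% of all probe sets (0.0993% were higher), from -0.45 for Fgfr4 and -0.66 for Ddr2 to -1.69 for Erbb2 and -2.15 for Epha2. Probe sets above the array median had median log2 changes of -0.10 at 10 min, -0.11 at 50 min, -0.70 at 110 min and -0.91 at 230 min. The small change up to 50 min and the drop by 110 min were thus shared by much of the array.

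Since most transcripts fell together, the receptors were also set against the middle of the array, by dividing each value by the median of its array. On that scale 7 of the 10 receptors fell and none rose, beside 21.4% of all probe sets that fell and 40.3% that rose. In the same fit the 7 were all among the 9 above the array median, where 42.7% of probe sets fell and 2.83% rose; refitted on those probe sets alone, 6 of the 9 fell, beside 37.8% that fell and 1.96% that rose. The slopes relative to the array median were -0.40 log2 per hr for Epha2 (SE 0.044, limma adjusted p = 1.804e-06), -0.26 for Erbb2 (SE 0.031, adjusted p = 3.823e-06) and -0.21 for Pdgfrb (SE 0.037, adjusted p = 0.0001068). They were -0.15 for Insr, -0.12 for both Fgfr1 and Egfr and -0.08 for Pdgfra, all past the threshold over the 15 arrays. The call of Pdgfra was lost in the refit (adjusted p = 0.0727), without the second time course (adjusted p = 0.343), without the third (adjusted p = 0.057) and without the 0 min arrays (adjusted p = 0.115). That of Fgfr1 was lost without the second (adjusted p = 0.0531) or the third time course (adjusted p = 0.0541), so that 5 to 7 receptors fell when 1 time course was left out. Met at -0.06 (SE 0.031, adjusted p = 0.1035), Ddr2 at -0.03 (SE 0.043, adjusted p = 0.5536) and Fgfr4 at 0.06 (SE 0.030, adjusted p = 0.08367) were not told apart from the array median. The other Insr probe set was at -0.02 (SE 0.032, adjusted p = 0.636). Without the 230 min arrays 3 receptors, Epha2, Erbb2 and Pdgfrb, fell relative to the array median. For the fits that left out arrays, the share of all probe sets called was not computed. The counts of receptors in those fits therefore cannot be set against the whole array.

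How far these relative slopes hold depends on what stands for the middle of the array. Divided by the 75th percentile of each array, which itself fell more steeply than the median, 3 receptors fell (Epha2, Erbb2 and Pdgfrb) and 3 rose (Met, Ddr2 and Fgfr4), beside 7.56% of all probe sets that fell and 74.1% that rose. With the 5th percentile subtracted from the values, Epha2 at -0.30 log2 per hr (limma adjusted p = 0.0004247) and Erbb2 at -0.19 (adjusted p = 0.004396) still fell relative to the array median, Met at 0.12 (adjusted p = 0.0464) and Ddr2 at 0.16 (adjusted p = 0.02868) rose, and the other 6 did not pass, beside 10.3% of all probe sets that fell and 27.9% that rose. Epha2 and Erbb2 were thus below the array, and past the threshold, under each of these scalings.

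**Figure D2:**
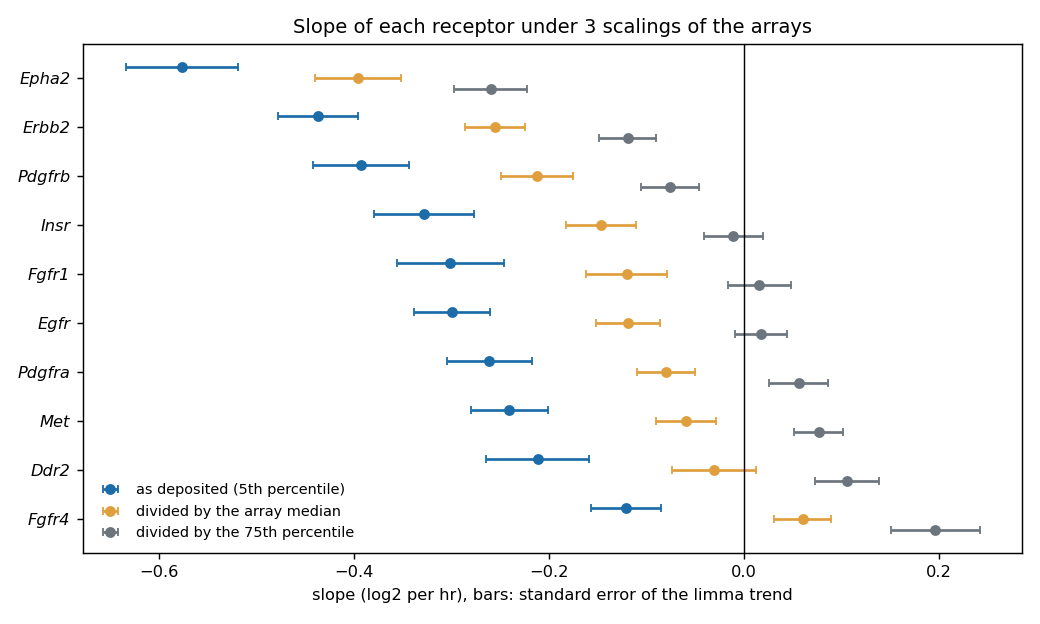
Slope of each receptor in log2 per hr (points, with the standard error of the limma trend as bars) for the deposited values, for values divided by the array median and for values divided by the 75th percentile of the array, over 15 arrays. Dividing by a higher percentile moves all 10 slopes to the right by a similar amount, and Epha2, Erbb2 and Pdgfrb stay left of 0 under all 3.

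The ratio of 2 receptors on the same array does not depend on how that array was scaled, so differences between receptors were tested on the 45 such ratios. Time labels were permuted within each time course in all 1728000 ways, and p-values were two-sided and adjusted over the 45 pairs; the smallest p the design allows is 5.79e-07. In 31 pairs the slopes differed, each with the same sign in 3 of 3 time courses, and in 14 pairs they did not pass. Of the 31 pairs, 9 passed when the last time (230 min) was left out, and 17 when the first was left out. Epha2 was steeper than each of the other 9 receptors. Its slope exceeded that of Erbb2 by 0.14 log2 per hr (SD 0.054 over 3 time courses, exact permutation adjusted p = 0.03031) and that of Ddr2 by 0.37 (SD 0.034, exact permutation adjusted p = 0.0001094). With the 5th percentile subtracted, the first of these differences was 0.11 (exact permutation adjusted p = 0.145), and without time course 1, 2 or 3 it also missed the threshold (exact permutation adjusted p of 0.0592, 0.154 and 0.102). The second difference passed under every setting tried.

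Erbb2 was steeper than 7 receptors, and Pdgfrb than 6. Erbb2 and Pdgfrb were not told apart, with a difference of 0.04 log2 per hr and a 95% interval over the 3 time courses of -0.16 to 0.25 (exact permutation adjusted p = 0.2902). With the 5th percentile subtracted they differed by 0.15, with Erbb2 the steeper (exact permutation adjusted p = 0.005406). At the other end, Met was steeper than no other receptor and shallower than 5, and Ddr2 was steeper than none and shallower than 6. Fgfr4 was shallower than 7. Insr, Fgfr1, Egfr and Pdgfra lay between these ends, and no pair of neighbours in the order from Insr to Fgfr4 passed the permutation test. Fgfr1 and Egfr had nearly the same slope, with an interval of the difference from -0.06 to 0.05 log2 per hr, and for Pdgfra and Met the interval was -0.05 to 0.01. After subtraction of the 5th percentile Pdgfra was steeper than Met by 0.14 (exact permutation adjusted p = 0.0407). The interval for Met and Ddr2 was -0.13 to 0.07. For 2 neighbouring pairs the interval over the 3 time courses lay on 1 side of 0 although the permutation test did not pass, at 0.010 to 0.044 for Fgfr1 minus Insr and 0.013 to 0.17 for Fgfr4 minus Ddr2. Other pairs passed the permutation test although their interval included 0. For Pdgfrb these were the differences from Ddr2 (-0.39 to 0.029), Insr (-0.23 to 0.10), Egfr (-0.33 to 0.14) and Fgfr4 (-0.55 to 0.0096). The rest were Pdgfra against Fgfr4, Fgfr1 against Ddr2, Met against Egfr and Egfr against Ddr2. These calls are less firm than the permutation p-values alone show.

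**Figure D3:**
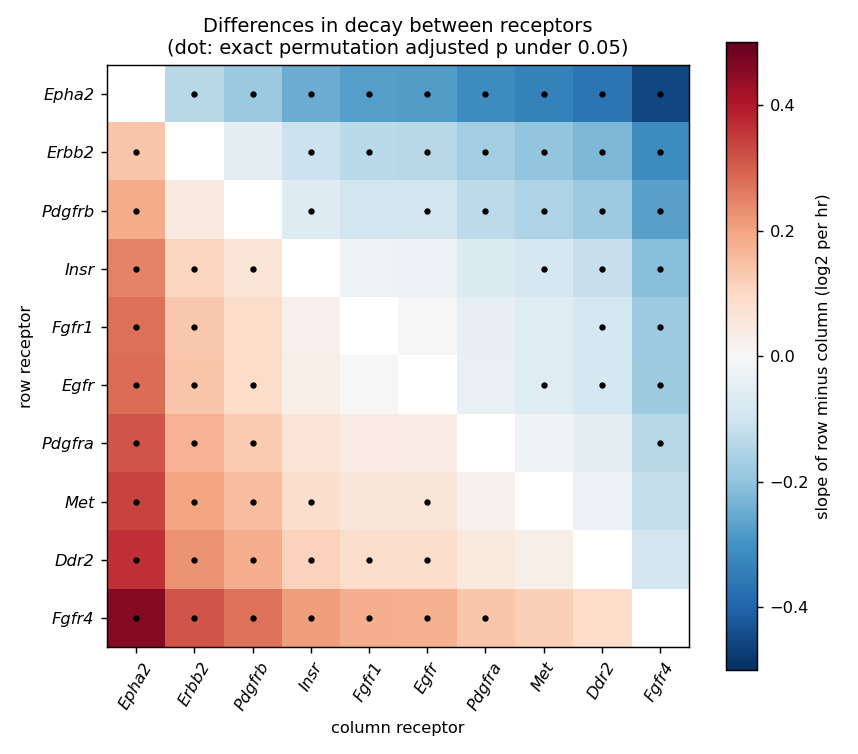
Difference in slope between each pair of receptors (row minus column, colour in log2 per hr), with a dot where the exact permutation test gave an adjusted p under 0.05 over the 45 pairs. The row of Epha2 is blue and dotted throughout, and the block of Insr, Fgfr1, Egfr and Pdgfra in the middle is pale and without dots.

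Within single time courses Epha2 was the steepest and Fgfr4 the shallowest in all 3. Epha2 had -0.54, -0.65 and -0.54 log2 per hr and Erbb2 -0.46, -0.49 and -0.36 in time courses 1, 2 and 3, whereas Ddr2 had -0.18, -0.25 and -0.20 and Fgfr4 -0.09, -0.12 and -0.14. Pdgfrb ranged more widely, at -0.32, -0.53 and -0.33, so that in the second time course it was steeper than Erbb2. In the third, Met at -0.19 was shallower than Ddr2.

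Half-lives were fitted to each time course as an exponential decay of the ratios, and were called reliable where the fit had p under 0.05 and the 95% interval was narrower than 2 half-lives in at least 2 of 3 time courses. By this measure 1 of the 10 receptors, Epha2, had a reliable half-life, beside 11.2% of probe sets above the array median and 5.84% of all. The half-life of Epha2 was 1.14, 1.47 and 1.37 hr in the 3 time courses, a mean of 1.33 hr ± 0.167 (SD, n = 3). This lies near the 10th percentile of 1.33 hr among the 1400 reliable half-lives, which had a median of 2.20 hr. These 1400 are only the probe sets that passed the criteria, not all those above the array median. The study reported far more reliable half-lives under criteria stated alike, with a longer median, and the reason for the difference was not tested. Of the 3 fits of Epha2 made here, the first did not meet the width criterion (95% interval 0.479 to 3.12 hr). Without the second or the third time course, therefore, no receptor had a reliable half-life, nor did any without the 0 min arrays. There were 2 without the 230 min arrays, and 4 without the low 110 min array of the first time course. The length of the Epha2 half-life also depends on the scale, with a mean of 2.06 hr on values divided by the array median and of 3.20 hr on values divided by the 75th percentile. When a floor was added to the decay curve, the mean was 0.939 hr.

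The other 9 receptors met the criteria in at most 1 time course, and their half-lives are given as estimates only. Erbb2 had a mean of 2.32 hr ± 0.608 (SD, n = 3), Pdgfrb 2.56 hr ± 0.489 (SD, n = 3) and Egfr 3.16 hr ± 0.858 (SD, n = 3). Fgfr1 came to 3.19 hr ± 0.940 (SD, n = 3), Pdgfra to 3.72 hr ± 0.805 (SD, n = 3) and Met to 4.10 hr ± 1.08 (SD, n = 3). Ddr2 at 4.86 hr ± 0.690 (SD, n = 3) and Fgfr4 at 7.67 hr ± 1.87 (SD, n = 3) had no fit that met the criteria in any time course, and for Ddr2 the upper limit of the half-life was unbounded in all 3. As deposited, the estimates of Met, Ddr2 and Fgfr4 were longer than the 230 min over which the mRNAs were followed. Insr had 2.99 hr ± 0.755 (SD, n = 3) by the probe set used and 5.62 hr ± 2.69 (SD, n = 3) by the other one.

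These estimates moved far with the scale. On values divided by the array median, the means over the time courses that decayed were 4.22 hr for Erbb2, 5.25 hr for Pdgfrb, 7.07 hr for Insr, 8.64 hr for Egfr and 8.78 hr for Fgfr1. They were 17.2 hr for Pdgfra, 24.9 hr for Met and 85.4 hr for Ddr2, and Fgfr4 had none. With the added floor Fgfr4 came to 0.961 hr and Pdgfra to 1.81 hr. In the second time course the Fgfr4 fit with a floor stopped at 3.47 min, the shortest half-life the search allowed. The Fgfr4 mean is therefore not a usable estimate.

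**Figure D4:**
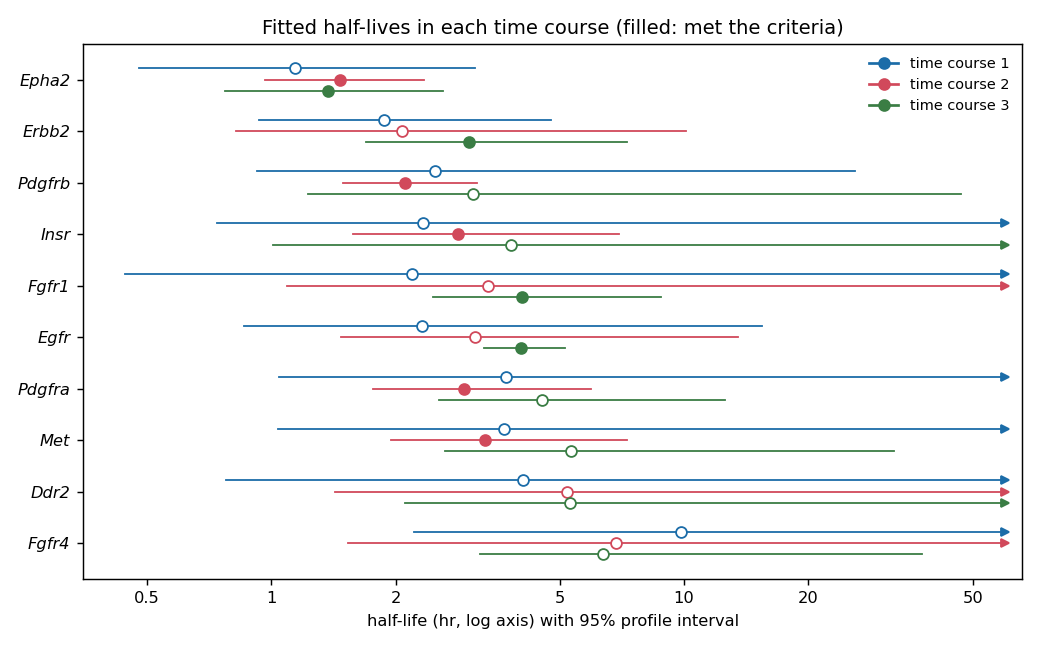
Fitted half-life of each receptor in each time course (hr, log axis), with the 95% profile interval as a line, an arrow where it ran past the axis, and a filled point where the fit met both criteria. The 3 intervals of Epha2 end at or below 3.12 hr, whereas most others have at least 1 that runs far to the right.

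The other genes of receptor signalling were described from 5 lists, as counts of probe sets called in the same trend. These counts are to be read against all probe sets, of which 75.8% fell, and against those above the array median, of which 96.3% fell, and 42.7% fell relative to the array median. Of 40 other receptor tyrosine kinases measured, 36 fell and 4 (Kdr, Epha5, Tek and Ros1, all below the array median) did not pass. Among the 17 above the array median the median slope was -0.22 log2 per hr, and relative to the array median 5 fell and 12 did not pass. Ephb3, a receptor of ephrin-B ligands, was the steepest at -0.43 (SE 0.058), followed by Mertk, a receptor used in clearing dead cells, at -0.41 (SE 0.041). Fgfr3 at -0.16 (SE 0.029) and Ret, the receptor of glial cell line-derived neurotrophic factors, at -0.13 (SE 0.035) were the shallowest.

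Of 32 ligands 28 fell, beside 75.8% of all probe sets, and the 21 above the array median had slopes with a median of -0.26 log2 per hr, with 10 falling and 1 rising relative to the array median, beside 42.7% and 2.83% of all probe sets above it. Efnb2, an ephrin-B ligand, and Pdgfb, the B chain that binds both platelet-derived growth factor receptors, each had a slope of -0.53 (SE 0.046 and 0.059). The collagen chains Col1a2 and Col3a1, which belong to fibrillar collagens that Ddr2 binds, were the shallowest of the 21. Their slopes were -0.06 (SE 0.032, limma adjusted p = 0.1164) and -0.08 (SE 0.041, adjusted p = 0.09074), and neither passed. Fgf1 at -0.06 (limma adjusted p = 0.1148) and Nrg4 at -0.05 (adjusted p = 0.05946), both below the array median, did not pass either. Col1a1, a further collagen chain of the list, fell at -0.14 (SE 0.034, limma adjusted p = 0.002165). Relative to the array median, Col1a2 rose by 0.12 log2 per hr (SE 0.036, adjusted p = 0.00625).

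All 34 adaptors and effectors measured fell and all were above the array median, where 96.3% of all probe sets fell. Their slopes had a median of -0.29 log2 per hr, and relative to the array median 20 fell, beside 42.7% of all probe sets above it, and 14 did not pass. The adaptors Nck1 at -0.58 (SE 0.060) and Crkl at -0.55 (SE 0.046) were the steepest, and Frs3, a docking protein of fibroblast growth factor receptors, at -0.18 (SE 0.033) and the small GTPase Nras at -0.16 (SE 0.054) the shallowest. All 38 inhibitors and trafficking factors also fell, as did 75.8% of all probe sets. The 33 above the array median had the steepest median of the lists, -0.33 log2 per hr, and 27 of them fell relative to the array median, beside 42.7% of all probe sets above it, while 6 did not pass. Errfi1, an inhibitor of Egfr and its family, had a slope of -0.87 (SE 0.093), and Spred2, an inhibitor of the Ras pathway, -0.84 (SE 0.075). The phosphatase Ptprf at -0.19 (SE 0.037) and the ubiquitin ligase Nedd4 at -0.12 (SE 0.041) were at the other end.

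The 17 cochaperones, coreceptors and sheddases measured all fell, as did 75.8% of all probe sets. The 15 above the array median had a median slope of -0.18 log2 per hr, and relative to the array median 1 fell, beside 42.7% of all probe sets above it, and 14 did not pass. That 1 was Ext1, which builds the heparan sulphate chains used by fibroblast growth factors, with a slope of -0.51 (SE 0.050). The sulphotransferase Hs2st1 was at -0.23 (SE 0.057), and the chaperone Hsp90aa1 and the coreceptor Sdc4 were each at -0.14 (SE 0.037 and 0.050). These calls were sensitive to 1 time course, since without the second 6 of the 17 passed, and without the 230 min arrays 11. The share of all probe sets that fell was not computed for those fits. Whether the lists differ from each other was not tested.

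**Figure D5:**
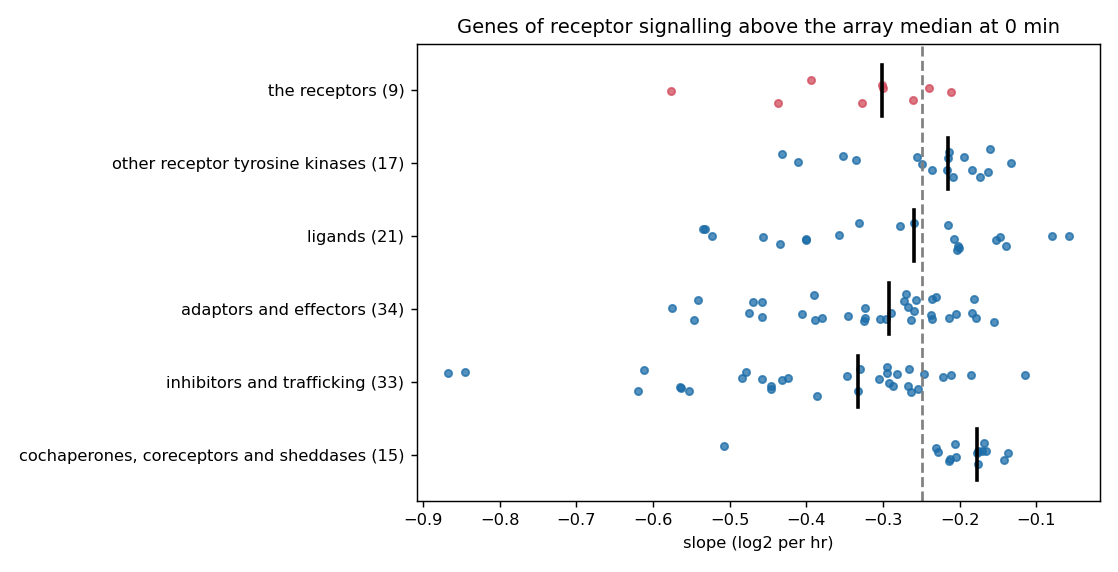
Slopes in log2 per hr of genes above the array median at 0 min, 1 point per gene, for the 9 receptors (red) and the 5 lists (blue), with list medians as black bars and the median of all probe sets above the array median, -0.25, as a dashed line. The vertical scatter within a row carries no information, and the inhibitors reach furthest to the left, to -0.87.

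The genes whose profile over the 15 arrays was most like that of each receptor were listed by the Pearson correlation of log2 ratios to the array median, out of 9878 candidates. These correlations are a description, since all genes share the same arrays, and the median r over all candidates was already 0.428 for Insr to 0.662 for Egfr. Epha2 was most like Susd6 (r = 0.977), Aqp5 (0.973) and Cemip2 (0.972). Erbb2 was most like Prr14 (0.983), Dusp14 (0.973) and the myogenic transcription factor Myod1 (0.972). Met was most like Rbm28 (0.981), Srm (0.980) and Nhp2 (0.980), of which Rbm28 and Nhp2 act in nucleoli and Srm makes spermidine. Pdgfrb was most like Fam20a (0.973), Eola1 (0.972) and Cdh18 (0.968).

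For the others the closest profiles were less close. They were Ccdc88a (r = 0.952), Pgs1 (0.950) and Pkp2 (0.948) for Egfr, Fam220a (0.927), Plpp3 (0.894) and Armcx4 (0.892) for Pdgfra, and Triobp (0.924), Csrp2 (0.921) and Vps13b (0.919) for Fgfr1. Ddr2 was most like Septin8 (0.909), Ctnnd1 (0.908) and the deadenylase Parn (0.902). Insr had Agap2 (0.927), Fam20a (0.925) and a receptor of the set, Pdgfrb (0.921), as its nearest. Among the 9 receptors above the array median the correlations of the 36 pairs ran from -0.12 to 0.92 with a median of 0.59. Differences in level between the time courses were not removed from these correlations.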

How the data were processed

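The values are those of 15 Affymetrix Mouse Gene 1.0 ST arrays, deposited by the authors as linear ratios: each summarised probe set was divided by the 5th percentile of its array. How probe sets were summarised, the background correction and the programs are not stated in the labels or methods, and the table holds no p-values of detection. Among the 25175 probe sets 21044 had 1 gene symbol in the platform annotation, 1492 several and 2639 none; 20959 were matched by gene number to a GRCm38.p6 gene table, used for names only, and positions are not given because the array annotation names no build.

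Log2 ratios were fitted against time in hr with limma 3.58.1 in R 4.3.3, with the time course as a block because the authors fitted each separately, over all 25175 probe sets, with Benjamini-Hochberg adjustment at 0.05. The same fit was run on ratios to the array median, and with each time against 0 min. The level filter used beside it (above the array median at 0 min in at least 2 of 3 time courses) left 12544 probe sets. Half-lives and exact permutation tests used Python 3.11.15, numpy 2.4.6, scipy 1.17.1 and pandas 2.3.3, and figures matplotlib 3.10.9. Intervals of differences between receptors are t intervals over 3 time courses. The code was first tested on data with known answers.

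Besides the receptors, the text names the 2 steepest and 2 shallowest genes of each list above the array median, the 3 most alike genes per receptor above it, and list genes that did not pass where 5 or fewer, chosen after their values were seen. Col1a1 was named beside the other collagen chains, also after its values were seen. Receptors and lists were chosen with earlier results of these data known. Alternatives covered the scaling, level filter, variance model, replicate block, decay model, probe sets, time courses and time points.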

Additional observations from a re-analysis of the deposited data

How the results depend on the processing

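Under the alternatives, 117 of 129 slopes kept their direction and side of the threshold, 5 missed it and 7 turned. Of the slopes relative to the array median 93 of 119 did, and of the differences between named pairs 87 of 117. The level filter, the intensity trend and the fit without the replicate block leave every slope estimate as it was. No slope could turn there, and the mean of probe sets alters only Insr, so these tallies overstate how far direction was tested. Scaling moved most. Divided by the array median, Fgfr4 had a slope of 0.060 log2 per hr, 3 receptors were lower by 110 min and 5 by 230 min; 5 other receptor kinases fell and 19 rose, 10 ligands fell and 7 rose, 20 adaptors fell, 2 inhibitors rose, and 1 cochaperone or coreceptor fell and 2 rose. Divided by the 75th percentile, 3 receptors fell and 3 rose, with slopes of 0.056 for Pdgfra, 0.016 for Fgfr1, 0.018 for Egfr, 0.077 for Met, 0.11 for Ddr2 and 0.20 for Fgfr4 turned upwards (the slopes of Pdgfra, Fgfr1, Egfr, Met and Ddr2 relative to the median turned to the same values, while that of Fgfr4 was above 0 on both scales); 1 receptor was lower and 2 higher by 110 min, 2 lower and 3 higher by 230 min, and 0 half-lives were reliable. There 2 other kinases fell and 35 rose, 6 ligands fell and 21 rose, and 10 adaptors fell and 9 rose. In the same fit 15 inhibitors fell and 11 rose, and 1 cochaperone or coreceptor fell and 16 rose. These trend counts are to be read against all probe sets, of which 7.56% fell and 74.1% rose on that scale. On values divided by the array median, 21.4% of all probe sets fell and 40.3% rose. The 19 other kinases and 2 inhibitors that rose on that scale were all below the array median at 0 min. So were the cochaperones or coreceptors that rose, and only 1 ligand that rose was above it. The counts at 110 and 230 min on these scales have no such share beside them.

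With the level filter 17 other kinases were tested and fell, and with an intensity trend in the variance 1 receptor, Fgfr4, rose relative to the median. With the 5th percentile subtracted, an alternative chosen after seeing the data, 2 receptors fell and 2 rose relative to the median, with Fgfr1 at 0.052, Met at 0.12, Egfr at 0.011 and Ddr2 at 0.16 log2 per hr; 25 pairs passed, 22 of them among the 31, and the differences turned to -0.034 for Pdgfra against Egfr, 0.040 for Fgfr1 against Egfr and -0.094 for Fgfr4 against Ddr2.

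Leaving out 1 time course gave 21 to 22 pairs, 0 to 1 reliable half-lives and 6 to 16 cochaperones and coreceptors that fell; Pdgfrb against Erbb2 ran from -0.0014 without the first to 0.081 without the second, and Fgfr1 against Egfr from -0.010 without the first to 0.011 without the second. Without the 0 min arrays 17 pairs and 0 half-lives passed, and Met against Ddr2 was 0.0022. Without the 230 min arrays 9 pairs, 2 half-lives, 3 receptors relative to the median and 11 cochaperones and coreceptors passed. Without the 110 min array of the first course 1 receptor was lower by 50 min, 4 half-lives were reliable and Fgfr1 against Egfr was 0.0026. A straight line through log2 values gave 4 reliable half-lives, and the mean of the Insr probe sets turned Fgfr1 against Insr to -0.037. The causes were not tested. For trend fits that left out arrays or took an intensity trend in the variance, the share of all probe sets called was not computed.

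Deviations of arrays from the mean of their time were correlated between arrays of different times. Arrays with the same replicate number deviated together in 29 of 30 pairs (r over 0.1, median 0.362, lowest 0.0012), against 14 of 60 pairs of other numbers. All 15 correlated best with their own number. That last count also took in arrays of the same time, which the subtraction sets against each other. It therefore favours the own number and cannot show pairing by itself. Without the replicate block 10 receptors fell, 6 fell relative to the median (Pdgfra missed the threshold, limma adjusted p = 0.0556), and 7 were lower by 110 min and 10 by 230 min. The share of all probe sets called without the block was not computed, so these counts cannot be set against the whole array.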
